A study of Homo sapiens with 4 samples.

Results

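ATF3 signal was examined at 7 genes that encode transcription factors of intestinal epithelial identity, CDX2, CDX1, HNF4A, KLF5, GATA6, ELF3 and EHF. The genes were chosen by name, and a region belonged to a gene when it overlapped the hg19 span of the gene extended by 20 kb on each side. The genes were chosen with earlier results of these data known, but that rule uses no measured value. It took 24 of the 44826 regions formed by merging the peaks of the 4 libraries wherever they shared at least 1 bp. ELF3 and KLF5 had 6 regions each, HNF4A 5, EHF 3, CDX2 and GATA6 2 each, and CDX1 had 0.

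The libraries were made by CUT&Tag, in which an antibody, here against ATF3, directs a transposase to cut and tag the DNA around the bound protein. The cells were SW480, an established human colorectal cancer line. Libraries CR1 and CR2 came from cells whose medium was restricted in cystine for 24 h, and libraries FM1 and FM2 from cells given full medium for the same time. Antibody and line were shared by all 4 libraries, and no library made without that antibody was analysed. The labels call the libraries of a medium separate samples without giving their origin. The p-values thus reflect the spread among these 4 libraries alone, pooled in part over regions, and that spread may be technical.

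CDX2 and CDX1 are caudal-type homeodomain factors, and CDX2 is the factor most closely tied to intestinal fate. HNF4A is a nuclear receptor of differentiated gut and liver epithelium, GATA6 and KLF5 are zinc-finger factors of endodermal and crypt cells, and ELF3 and EHF are ETS factors largely restricted to epithelia. ATF3 is a stress-induced bZIP protein that binds, alone or with JUN-family partners, to AP-1 and cyclic AMP response elements.

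All values below are summit heights unless another quantity is named. A height is the number of tags piled up at a peak's summit, recovered from the deposited fold enrichment and −log10 p, divided by the expected pileup of the library over the whole genome. That expected pileup, the genome background, was 1.30 tags in CR1, 1.08 in CR2, 1.11 in FM1 and 1.32 in FM2. A height is thus a multiple of the genome background and takes the depth of each library into account. A library with no peak at a region has no height there, which says that the caller's criteria were not met and not that binding was absent. At the genome background alone, the lowest listed pileup was 7 tags in CR1, FM1 and FM2 and 6 in CR2, and more was needed where the local background was higher.

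Promoter sequences are shown for ELF3 and GATA6, whose starts lay in or within 1 kb of a region. The second KLF5 start, at a distance from the first that a region covered, and the second HNF4A start, with the only AP-1 match among the promoters of these genes, were added after their values were seen. All 4 run 5′ to 3′ along the gene's strand, from 250 bases before to 50 bases after the start, and come from RefSeq on GRCh38.p14, not from the hg19 build of the peaks. Capitals mark a match to the AP-1 motif. The ELF3 promoter is chr1:202010337-202010636, the GATA6 promoter chr18:22169339-22169638, the second KLF5 promoter chr13:73058755-73059054 and the second HNF4A promoter chr20:44400989-44401288, each on the plus strand.
ELF3: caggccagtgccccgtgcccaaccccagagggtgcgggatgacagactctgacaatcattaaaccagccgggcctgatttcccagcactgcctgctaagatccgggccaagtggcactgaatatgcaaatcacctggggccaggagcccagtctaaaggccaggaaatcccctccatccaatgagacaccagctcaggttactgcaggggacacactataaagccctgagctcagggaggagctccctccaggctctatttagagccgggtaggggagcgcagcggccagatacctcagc
GATA6: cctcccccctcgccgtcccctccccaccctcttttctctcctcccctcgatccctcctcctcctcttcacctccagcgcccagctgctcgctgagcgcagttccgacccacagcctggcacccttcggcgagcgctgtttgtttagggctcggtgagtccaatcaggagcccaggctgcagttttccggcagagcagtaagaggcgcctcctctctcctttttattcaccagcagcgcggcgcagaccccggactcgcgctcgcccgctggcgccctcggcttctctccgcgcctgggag
KLF5 second start: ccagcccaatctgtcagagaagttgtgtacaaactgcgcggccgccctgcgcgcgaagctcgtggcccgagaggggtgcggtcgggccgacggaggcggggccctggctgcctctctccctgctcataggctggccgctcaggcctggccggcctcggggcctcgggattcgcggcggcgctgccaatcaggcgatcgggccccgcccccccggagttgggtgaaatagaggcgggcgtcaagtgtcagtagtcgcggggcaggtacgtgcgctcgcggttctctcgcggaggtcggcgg
HNF4A second start: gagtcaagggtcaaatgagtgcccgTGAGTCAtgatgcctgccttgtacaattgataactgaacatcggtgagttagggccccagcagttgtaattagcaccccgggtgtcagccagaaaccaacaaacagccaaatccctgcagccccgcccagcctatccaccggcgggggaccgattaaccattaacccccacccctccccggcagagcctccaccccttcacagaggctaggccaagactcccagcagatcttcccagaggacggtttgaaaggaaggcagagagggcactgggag

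The table held 9 promoters of 6 of the 7 genes, and CDX1 had no entry. Both strands of each were searched for the AP-1 motif TGANTCA, the cyclic AMP response element TGACGTCA and the amino acid response motif TGATGCAA. TGANTCA was found in 1 of the 9, as TGAGTCA with its first base 225 bases before the second HNF4A start, and 7.71% of all 35116 promoters of this length hold it. Neither TGACGTCA, which 1.85% of all promoters hold, nor TGATGCAA, which 0.866% hold, was found in the 9. The ELF3, GATA6 and second KLF5 promoters held none of the 3 motifs. Their G+C content was 59.0%, 66.7% and 71.3%, against a median of 58.7% over all promoters. Sequence of the regions away from the starts was not used here.

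Most of the regions lay away from the gene starts. Of the 24, 15 overlapped a gene span, 8 lay past the 3′ end and 1 lay wholly upstream. Only ELF3 had a region over the start of its hg19 span, the gene start used here. Second RefSeq starts of KLF5 and HNF4A are described below. The 7 windows together measured 486.376 kb, which gives 4.93 regions per 100 kb, against 1.52 per 100 kb over the chromosomes from first to last region. No test was made of this difference, since the genome-wide figure includes long stretches without genes. Whether a region within a span is exonic or intronic was not analysed here.

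**Figure D1:**
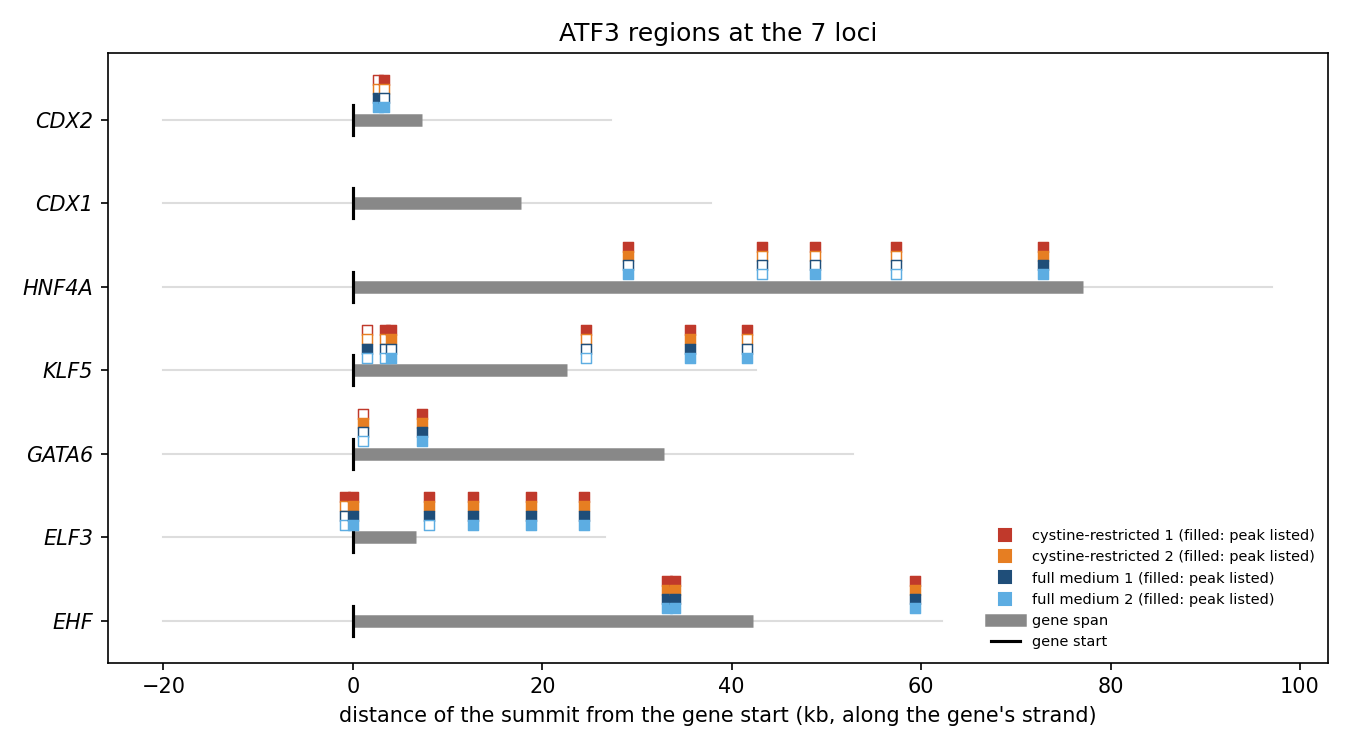
Position of the 24 regions at the 7 loci, as the distance of the summit from the gene start in kb along the gene's strand. Each column of 4 squares is a region and each square a library, filled where a peak was listed. The grey bar is the gene span and the thin line the window of 20 kb on each side; CDX1 has no region, and the 3 EHF regions are filled in all 4 libraries.

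None of the regions was gained under cystine restriction, and 10 were present throughout. A peak was listed in all 4 libraries at 10 of the 24 regions (41.7%), against 23.0% of all regions. Gained regions, those that CR1 and CR2 listed and FM1 and FM2 did not, numbered 0 of 24 against 12.7% of all regions. All 13 regions that CR1 and CR2 shared also had a peak in at least 1 full-medium library, whereas 27.6% of such regions overall were gained. Of the 11 regions that FM1 and FM2 shared, 1, in CDX2, was lost, meaning that CR1 and CR2 did not list it. Lost regions were 0.386% of all regions and 1.56% of those that FM1 and FM2 shared. These shares were not tested, and nothing is claimed to be particular to these loci. Of the remaining regions, 3 were listed in 3 libraries, 3 in CR1 and FM2, and 7 in a single library, 5 of these in CR1. The libraries listed 21 and 14 of the 24 regions under cystine restriction and 13 and 16 in full medium, so CR2 listed fewer than FM2. The absence of gained regions depended on both libraries of each medium, and the gained class grew over all regions too, from 5685 of 44826. Without CR2 the count was 5 of 24, against 15954 of all 39096 regions. Without FM2 it was 2 of 24, against 8346 of 42452. Without CR1 it was 1 of 19, against 12857 of 36195, and without FM1 1 of 23, against 7691 of 43197.

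At the 10 regions listed in all 4 libraries, heights could be compared between the media. The comparison used limma on log2 height over all 10331 regions listed in all 4 libraries, with Benjamini-Hochberg adjustment over all of them. For each region limma combines its own spread with the trend of spread over all 10331 regions. A region whose libraries disagree can thus have a smaller SE than its own spread alone would give. Over those 10331 regions the median log2 change, cystine-restricted minus full medium, was 0.53, and 43.2% were called higher and 0.407% lower at an adjusted p under 0.05. Of the 10 members, 4 were called higher, the 3 of EHF and 1 of ELF3, which is close to that background, and 0 were called lower, also at an unadjusted p under 0.05 in limma. The median change of the 10 was 0.46 on the log2 scale, from 0.13 to 1.53. Both cystine-restricted heights exceeded both full-medium heights at 9 of the 10, against 72.8% of all 10331 regions, and were below both at 0, against 2.38%. To ask which regions moved relative to the general shift, heights were also centred on the median of each library. On that scale 4.96% of the 10331 regions were called higher and 4.28% lower, and the members called were the 3 EHF regions, all higher.

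**Figure D2:**
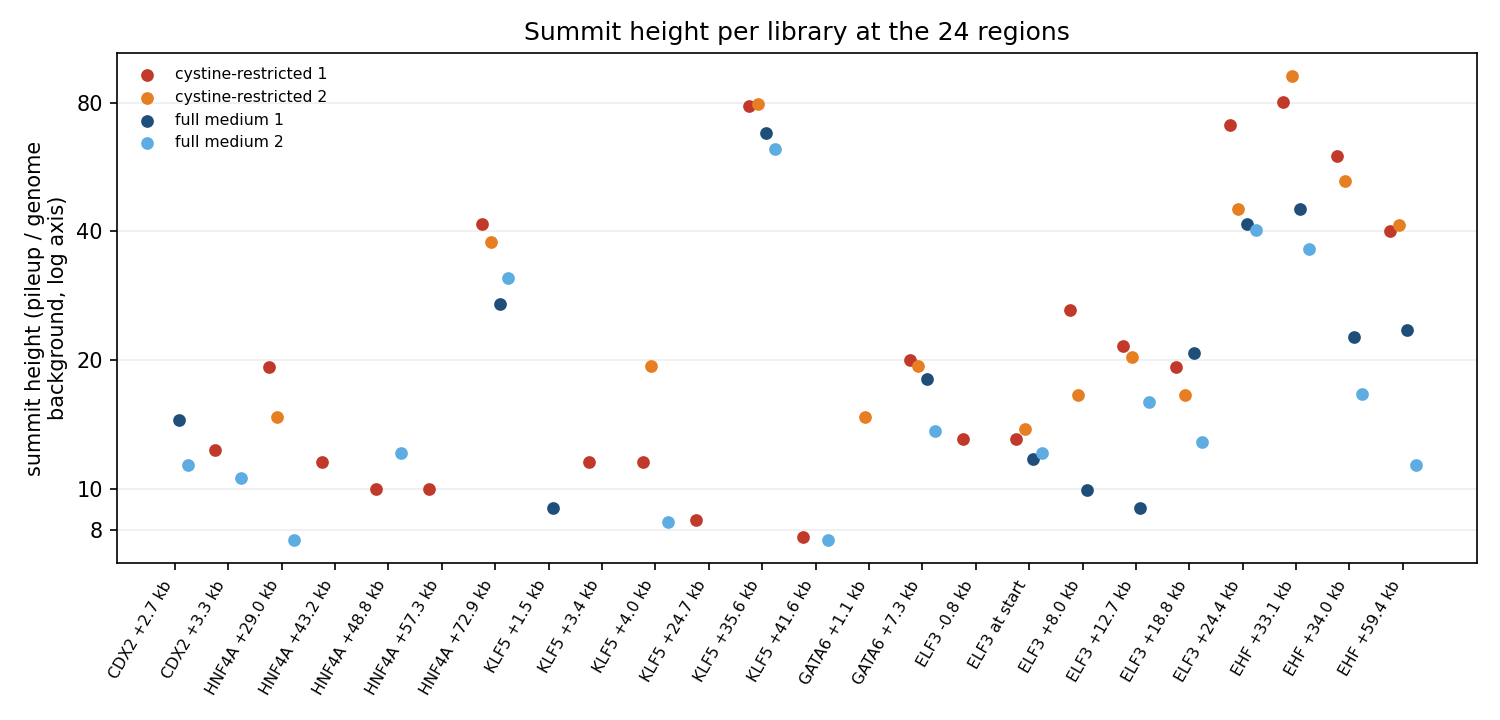
Summit height in each library at the 24 regions, in gene order and then by distance from the gene start, on a log axis. A missing point means that the library listed no peak. At each of the 3 EHF regions CR1 and CR2 lie above FM1 and FM2, and the KLF5 region at 35.6 kb lies between 62.2 and 79.3 in the 4 libraries.

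EHF, an ETS factor of mature epithelial cells, had 3 of the 4 members called higher. The first region, chr11:34675192-34676296, lay within the span, 33.1 kb downstream of the start. Its height was 80.1 in CR1, 92.3 in CR2, 45.2 in FM1 and 36.4 in FM2. Both cystine-restricted libraries stood well above both full-medium libraries. The log2 change was 1.08 ± 0.19 (SE; limma adjusted p = 1.3e-05), a 2.12-fold higher level. Of all 10331 regions, 91.8% changed by less.

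A narrow second EHF region followed after a gap of 144 bp, chr11:34676441-34676719, 279 bp wide. It had heights of 60.1 and 52.6 under cystine restriction and 22.6 and 16.7 in full medium. The media did not overlap, and the summits of the 4 libraries lay within 5 bp of each other. The log2 change was 1.53 ± 0.23 (SE; limma adjusted p = 1e-06), a 2.89-fold higher level, and 98.5% of all regions changed by less.

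The third EHF region, chr11:34701778-34703051, lay 16.9 kb past the end of the gene. Heights were 40.1 and 41.5 under cystine restriction and 23.5 and 11.4 in full medium. CR1 and CR2 were nearly equal and FM1 was well above FM2, yet the media did not overlap. The log2 change was 1.32 ± 0.27 (SE; limma adjusted p = 0.00015). It was 1.84 without FM1 and 0.80 without FM2, fits that leave 1 full-medium library and do not see how far FM1 and FM2 differ. At this region FM1 and FM2 differed by 1.05 on the log2 scale. CR1 listed 2 peaks in this region, and the summits of the 4 libraries were spread over 908 bp, so the libraries did not share 1 summit here.

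The higher EHF heights went with a higher local background. The local background is the pileup expected at a peak from its surroundings, recovered from the same deposited values. The width of those surroundings is not stated, nor whether they include the peak's own tags. This local background was 7.77 and 7.31 times the genome background at the first EHF region under cystine restriction. In full medium it was 3.92 and 3.65 times. At the second region, 144 bp away, the multiples were 7.73 and 7.20 against 3.78 and 3.57, and the first 2 regions are thus not separate measures of it. At the third the multiples were 4.57 and 5.16 against 3.40 and 2.51. When the deposited fold enrichment over this local background took the place of height, the log2 changes of the 3 regions were 0.21, 0.61 and 0.67, with limma adjusted p of 0.42, 0.096 and 0.097, and 0 of the 10 members were called. With that scale 4.96% of all regions were called higher and 0.0290% lower, and the median change of all was 0.21. If the peak's own tags count in its local background, the fold takes out part of any change at the peak. The part of the local background in the height difference was not tested. After median-centring, the EHF changes were 0.52, 0.97 and 0.75, with limma adjusted p of 0.033, 0.00086 and 0.039.

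**Figure D3:**
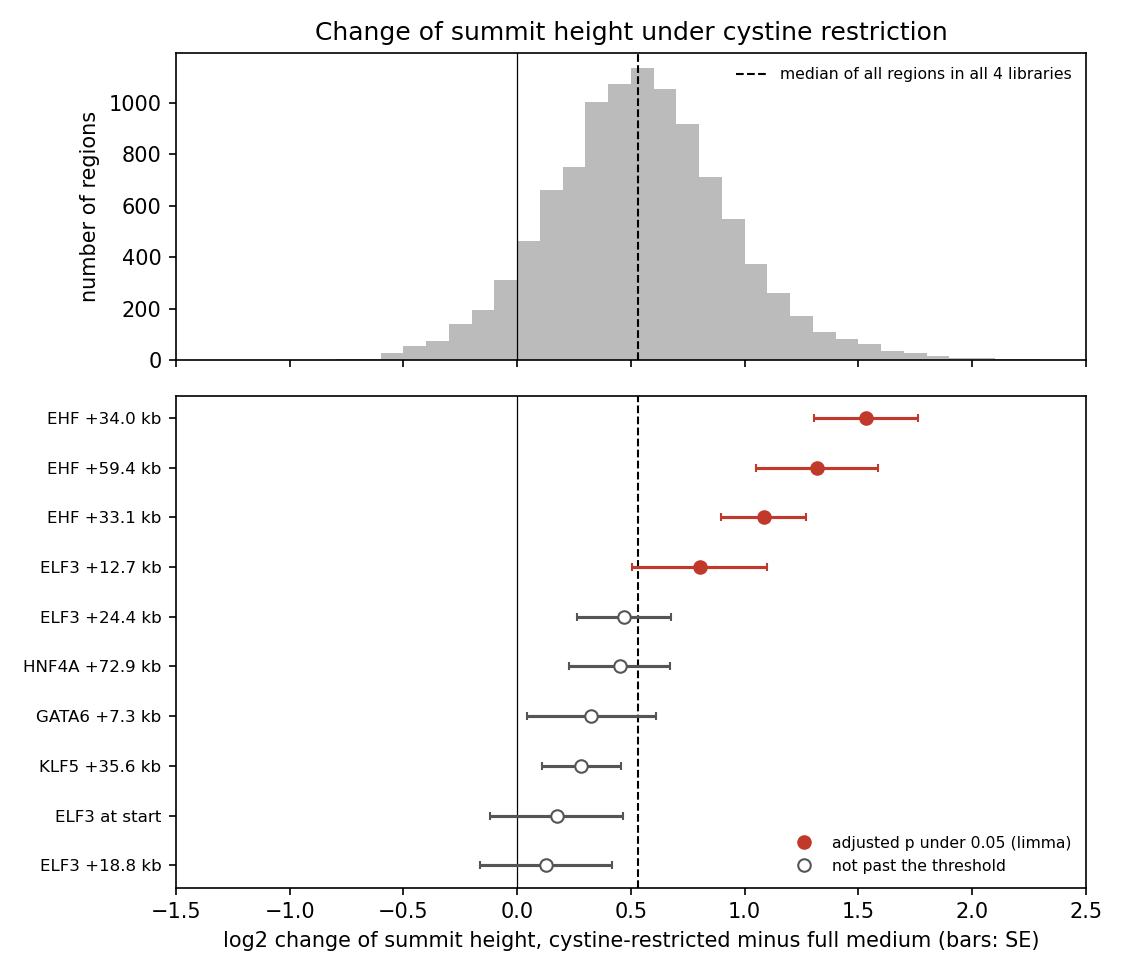
Top, distribution of the log2 change of summit height over the 10331 regions listed in all 4 libraries. Bottom, the change at the 10 members with its SE from limma, filled red where the adjusted p was under 0.05. The dashed line marks the overall median of 0.53; the 3 EHF regions lie to its right, from 1.08 to 1.53, and 6 members lie to its left.

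ELF3, the other ETS gene, had 6 regions in the smallest window of the 7, and 4 of them were listed in all libraries. Over the start, from 428 bp upstream to 116 bp downstream, lay chr1:201979262-201979806. Its heights were 13.1 and 13.8 under cystine restriction and 11.7 and 12.1 in full medium. The 4 libraries differed little, and the log2 change of 0.17 had a 95% interval from −0.42 to 0.76 (limma adjusted p = 0.63). CR1 alone listed a further peak, from 595 to 855 bp upstream, at a height of 13.1.

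The other 4 ELF3 regions lay past the 3′ end. The nearest, chr1:201987244-201988098, had heights of 26.2 and 16.6 under cystine restriction and 9.94 in FM1, with no peak in FM2. At the local background that FM2 had at its nearest peak, 4759 bp away, at least 11 tags were needed for a listing. That is a height of 8.34, which is below the 9.94 listed in FM1. Such a pileup is a lower limit from the −log10 p alone and need not be listed. At chr1:201992028-201992778, 5.71 kb past the end, heights were 21.6 and 20.3 against 9.04 and 15.9. The 2 cystine-restricted libraries were alike and both above full medium, and the log2 change was 0.80 ± 0.30 (SE; limma adjusted p = 0.027). That call was lost after median-centring (0.23, adjusted p = 0.7) and with the local background (0.40, adjusted p = 0.31), both in limma. The change was 0.76 without CR1, 0.85 without CR2, 0.39 without FM1 and 1.21 without FM2. Each of these fits leaves 1 library in a medium, so only the change is given.

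Further out, chr1:201998332-201998828 was the only member listed in all libraries at which the media overlapped. Its heights were 19.3 and 16.6 under cystine restriction and 20.8 and 12.9 in full medium, and its log2 change of 0.13 had a 95% interval from −0.46 to 0.71 (limma adjusted p = 0.73). The strongest ELF3 region was chr1:202003623-202004417, 17.3 kb past the end. It reached 70.9 in CR1, 45.2 in CR2, and 41.6 and 40.2 in full medium. A single library stood out, since CR2 was close to full medium. The log2 change of 0.47 ± 0.21 (SE) had a limma adjusted p of 0.059. It was 0.14 without CR1 and 0.79 without CR2, fits that leave 1 cystine-restricted library. With the replicate number as a block the limma adjusted p was 0.049. The summits of the 4 libraries were within 5 bp.

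KLF5, a Krüppel-like factor of proliferating crypt cells, had the strongest member by mean height. It was chr13:73664017-73665488, 1472 bp wide, 12.3 kb past the end of the gene. Heights were 78.6 and 79.3 under cystine restriction and 67.8 and 62.2 in full medium. The peak ranked within the top 1.75% to 2.33% of each of the 4 lists, and its summits fell within 10 bp. The media did not overlap, but the log2 change of 0.28 had a 95% interval from −0.06 to 0.63 (limma adjusted p = 0.17), and 24.7% of all regions changed by less.

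The remaining KLF5 regions were low. Near the start of the gene, chr13:73632954-73633635 had heights of 11.6 and 19.4 under cystine restriction and 8.34 in FM2. It ran from 3840 to 4521 bases downstream of the start, and in RefSeq's GRCh38.p14 table the second KLF5 start is 4029 bases downstream of the first. Positions of starts were not carried over to hg19. CR1 alone listed a peak 117 bp away from this region, at a height of 11.6, and another 2.00 kb past the gene's end, at 8.48. FM1 alone listed one 1.48 kb downstream of the start, at 9.04. A last region, 18.8 kb past the end, was listed at 7.71 in CR1 and at 7.59 in FM2.

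GATA6, a zinc-finger factor of endoderm, had 2 regions, both within its span. Close to the start, chr18:19749805-19750819 began 389 bases downstream and was listed only in CR2, at a height of 14.8. At the background of its nearest peak, 6479 bp away, CR1 needed at least 9 tags for a listing, a height of 6.93. Reaching that pileup does not by itself mean being listed. CR1 and CR2, of the same medium, thus differed in whether they listed this region. The second region, chr18:19756455-19757232, had heights of 20.03 and 19.4 under cystine restriction and 18.1 and 13.7 in full medium. The media did not overlap, yet the log2 change of 0.33 had a 95% interval from −0.24 to 0.89 (limma adjusted p = 0.34).

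HNF4A, the nuclear receptor, had 5 regions, all within its span, and the one nearest to the start of the span began 28695 bases downstream of it. The strongest was chr20:43056611-43057860, near the 3′ end, 72.9 kb from the start, with heights of 41.6 and 37.8 under cystine restriction and 27.1 and 31.1 in full medium. Both cystine-restricted libraries were higher, and the log2 change of 0.45 ± 0.22 (SE) did not pass (limma adjusted p = 0.092). At 29.0 kb, chr20:43013136-43013544 had heights of 19.3 and 14.8 under cystine restriction and 7.59 in FM2, and no peak in FM1.

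The other 3 HNF4A regions were narrow, from 158 to 252 bp. Those at 43.2 and 57.3 kb were listed in CR1 alone, at heights of 11.6 and 10.0. That at 48.8 kb was listed at 10.0 in CR1 and at 12.1 in FM2. RefSeq's GRCh38.p14 table places the second HNF4A start 45540 bases downstream of the first, between the regions at 43.2 and 48.8 kb. No region covered that distance, although positions were not carried over between the builds.

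CDX2, the homeodomain factor of intestinal fate, had 2 low regions, both within its span on the minus strand. The lost region, chr13:28540551-28541088, was 2.68 kb downstream of the start. It had 16 tags in FM1, a height of 14.5 (95% exact Poisson interval 8.27 to 23.5), and 15 tags in FM2, a height of 11.4 (6.37 to 18.8). These intervals cover counting error only, and tags copied by PCR are not independent. The 2 full-medium peaks were low in their lists, at the top 56.6% and 67.7%, and their summits were 410 bp apart. CR1 listed no peak here, but it listed one 221 bp away, chr13:28539988-28540329, at a height of 12.3. FM2 also had that second region, at 10.6. At the local background of this neighbouring peak, CR1 needed at least 11 tags for a listing, a height of 8.48, which lies within both Poisson intervals. Whether CR1 differed from FM1 and FM2 here was not tested. CR2 would have needed at least 6 tags if only the genome background applied, a height of 5.54, which is below both intervals. Its nearest peak was 110390 bp away, at whose local background 9 tags, a height of 8.30, were needed, and its local background at CDX2 itself was not known. The region did not count as lost when peaks needed a −log10 q of 5 or more, or when peaks of different libraries had to overlap reciprocally by 50%.

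CDX1, the second caudal-type factor, had a window of 57.778 kb that held no peak in any of the 4 libraries. The nearest regions lay just beyond it. One, chr5:149522395-149523426, 22.9 kb from the gene, was listed in all 4 libraries at heights of 170.3 in CR1, 174.4 in CR2, 119.3 in FM1 and 97.9 in FM2. The other, 24.2 kb from the gene, was listed in 3 libraries at heights from 12.9 to 16.2. For the other genes, the members nearest to the 20 kb limit were the KLF5 region at 18.8 kb, the ELF3 region at 17.3 kb and the EHF region at 16.9 kb. Just outside it were a region 20.04 kb upstream of EHF, listed in 3 libraries, one 21.02 kb from GATA6, listed in all 4, and one 21.96 kb past the end of EHF, also listed in all 4. The last had heights of 30.1 and 33.2 under cystine restriction and 19.9 and 19.7 in full medium. With a wider window these would have been members.

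**Figure D4:**
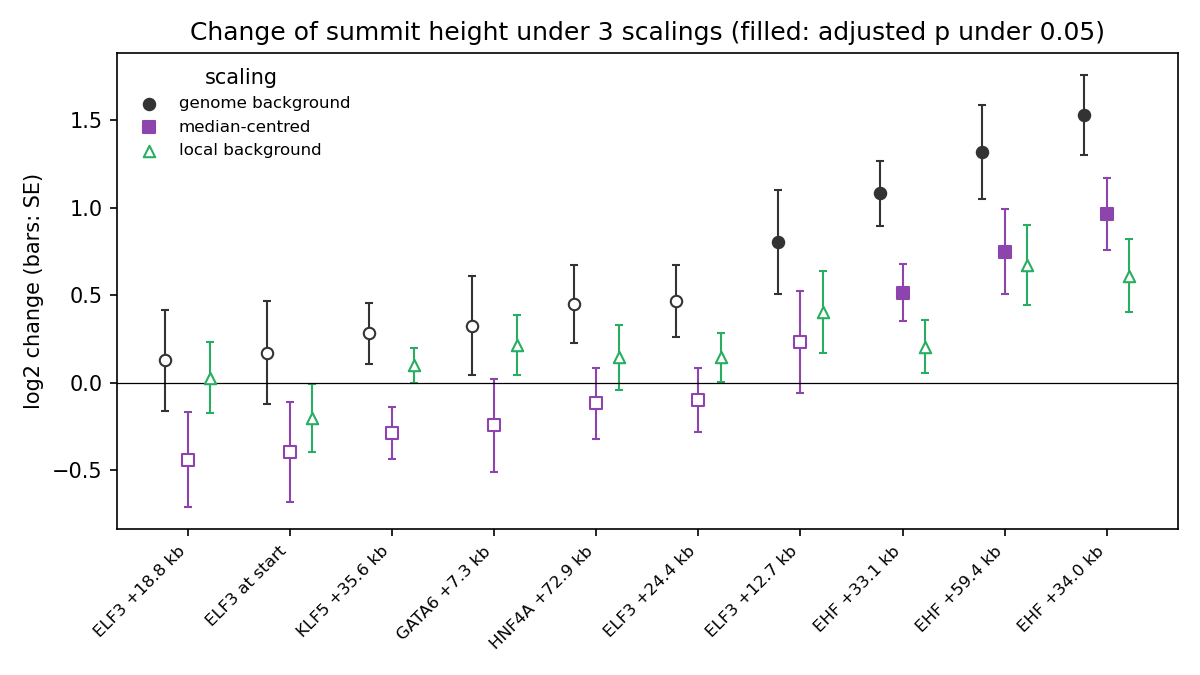
Log2 change of summit height with SE at the 10 members under 3 scalings, with filled symbols where the limma adjusted p was under 0.05. The 3 EHF regions are called with the genome background and after median-centring and are not called with the local background; the ELF3 region at 12.7 kb is called with the genome background alone.

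At the 10 regions listed in all 4 libraries, the 4 summits of a region spanned a median of 44.5 bp, from 5 to 908 bp, against 124 bp over all 10331 regions. The mean height of the 10 had a median of 31.8, against 22.2 over all. Neither difference was tested. The members listed in a single library had heights from 8.48 to 14.8, and those listed in all 4 from 9.04 to 92.3, so the ranges overlapped at the low end. The 5 strongest members by mean height were the KLF5 region at 35.6 kb, the first 2 EHF regions, the ELF3 region at 24.4 kb and the HNF4A region at 72.9 kb.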

How the data were processed

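ATF3 CUT&Tag was measured in 4 libraries of SW480 cells, 2 per medium, grouped by the labels' treatment. The submitters' processing notes name hg19 as the build and MACS2 2.2.7.1, BWA 0.7.17, fastp 0.19.7 and bcl2fastq 2.17 as tools; their settings were not used here. The authors deposited 1 peak list per library with a score, the fold enrichment at the summit as a ratio over the local background, −log10 p and −log10 q. The score was within 1 of 10 times the −log10 q at each peak. Lists held 33838 and 29607 peaks in CR1 and CR2 and 17447 and 19132 in FM1 and FM2 on chromosomes 1 to 22 and X.

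Total reads per library are unknown here, so depth is known only through the background. Summit pileup was recovered from the deposited fold and −log10 p, with a match within 0.1% for 100% of peaks, and divided by the lowest local background of the list. Peaks sharing at least 1 bp were merged (Python 3.11.15, bedtools 2.31.1). Gene spans came with the list of 7 genes. Log2 heights were compared with limma 3.58.1 in R 4.3.3 (lmFit, eBayes with trend), with Benjamini-Hochberg adjustment, and the script was tested on simulated data. An exact permutation test of 2 against 2 libraries cannot give a two-sided p under 0.33 and was not used. Alternatives were other scalings, a pseudocount of 10 tags, a mean pileup of at least 20 tags, stricter peaks, reciprocal overlap, the same number of top peaks, each library left out and the replicate number as a block.

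By rule, the region nearest to the start, the strongest region and any gained or lost region of each gene were named, and the other regions were named after their values were seen. The members and lists were chosen with earlier results of these data known. A further list of intestinal genes needs hg19 annotation and was not analysed here, nor was expression of the line's markers.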

Additional observations from a re-analysis of the deposited data

How the results depend on the processing

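The count of regions listed in all 4 libraries, 10, stayed between 8 and 12 under each alternative. Gained regions, 0, numbered 1 with a −log10 q of at least 5 (HNF4A, 29.0 kb), against 4342 of all 26836 regions. With reciprocal overlap there was 1 (ELF3, 0.929 kb past its end), against 5271 of 60006. The same number of top peaks gave 0, against 1837 of 27912. A library left out gave from 1 to 5, with the counts over all regions given above. Lost regions, 1, numbered 0 with a −log10 q of at least 5, against 85 of 26836, and 0 with reciprocal overlap, against 859 of 60006. With a library left out they numbered from 1 to 2, where KLF5 at 1.48 kb joined CDX2 without FM2. Over all regions the lost count then ran from 369 to 2838. Fewer libraries make both classes easier to meet.

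The 4 regions called higher by limma, against 43.2% of all regions, became 0 with the fold over the local background, against 4.96%. Under the alternatives that kept all 4 libraries, 0 members were called lower. Leaving out FM1 brought the members with a value to 12, and leaving out FM2 to 11. The median change of 0.46 was 0.18 with the local background, −0.11 after median-centring, which moves all regions down, and 0.34 to 0.66 with a library left out. After median-centring the log2 change was −0.40 and −0.44 at the ELF3 regions at the start and at 18.8 kb, −0.10 at ELF3 24.4 kb, −0.24 at GATA6 7.33 kb, −0.12 at HNF4A 72.9 kb and −0.29 at KLF5 35.6 kb, none of them called. With the local background the ELF3 start gave −0.20. With a library left out, ELF3 at 18.8 kb ranged from −0.22 to 0.47. The causes of these shifts were not tested. The minimum pileup left the ELF3 start without a value.

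With the replicate number as a block, limma called 5 of the 10 members higher, against 44.3% of all regions. Each same-numbered pair holds only 1 library per medium, so both classes are easier to meet there. Within pairs 1 and 2, 10 and 2 members were gained, a mean of 6, against 19089 and 14594 of all 44826 regions. Lost members numbered 2 and 4, a mean of 3, against 2566 and 4246. Deviations of same-numbered libraries were nearly uncorrelated (0.01 over 10331 regions), and the labels do not say whether the numbers mark pairs. Peaks of about 10 tags have wide counting intervals, so low regions are the least certain.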
